A study of Mus musculus with 12 samples.

Results

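CD8Dual mice hold a CD8.1 and a CD8.2 population of lymph node (LN) T cells, and the comparison described here sets one against the other by RNA-seq. Its members are the 6 samples whose labels give the CD8Dual strain, 3 sorted for CD8.1 and 3 for CD8.2, out of 12 samples in all, the other 6 being CD4+ and CD8+ T cells of B6 mice, also 3 of each. CD8Dual mice (named 8in4 in the sample labels) carry *Cd4* loci altered to encode the co-receptor chains CD8α.1 and CD8β in place of CD4, while their intact *Cd8* loci encode CD8α.2 and CD8β. A CD8.1 T cell thus bears a co-receptor made from the *Cd4* locus and a CD8.2 T cell a co-receptor made from the *Cd8* locus, and the study describes both as selected on MHC-I. The labels give all mice as male, whereas the methods of the study name both sexes, and as 6 to 10 weeks old. Every sample was RNA of pooled sorted LN cells, and the labels name no treatment. The labels name TCRβ (antibody H57) among the sort markers, and the methods of the study, which call the sorted cells naive, add a CD44− gate. The labels do not say which samples share mice. P values therefore measure the spread between these samples, which may be in part technical. The question asked of these samples is whether T cells that share MHC-I selection and a CD8 co-receptor differ in gene expression when that co-receptor comes from the *Cd4* or the *Cd8* locus.

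Mature αβ T cells leave the thymus as helper or cytotoxic cells. The zinc finger factor ThPOK, encoded by *Zbtb7b*, is required for the helper fate and represses cytotoxic genes, and Runx3 acts in the cytotoxic lineage, where it silences *Cd4* and *Zbtb7b*. Helper T cells give help through CD40L and cytokines and include Foxp3+ regulatory T (Treg) cells, whereas cytotoxic T cells kill with perforin and granzymes under the T-box factors T-bet and Eomes.

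Expression is given as CPM, read counts scaled to the size of each sample after TMM normalization (trimmed mean of M-values), always in the order of samples 1, 2 and 3. Log2 fold changes are CD8.1 over CD8.2 with their SE, from edgeR's quasi-likelihood test fitted to all 12 samples, and *P* is adjusted by the Benjamini-Hochberg method over the 13118 genes tested. Members of a gene list are said to be higher or lower, or to have risen or fallen, only at an adjusted *P* under 0.05. At that threshold 14.9% of all tested genes were higher in CD8.1 T cells and 13.8% were higher in CD8.2 T cells (28.7% in all), and these shares are the background for every list below. The median log2 fold change of all tested genes was −0.00465, and the samples of the 2 groups did not overlap in CPM for 40.7% of genes. A list counts genes and not cells, and in such bulk samples fewer cells of a type and less RNA per cell cannot be told apart.

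The sorted populations differed at *Cd8a* and at the lineage markers, although none of these genes shows which CD8α form a cell bore. *Cd8a* read 179, 196 and 201 CPM in CD8.1 and 1432, 1492 and 1455 in CD8.2 samples, and counts do not show which locus or allele a read came from. *Zbtb7b* (chromosome 3, 89377644 to 89394776) was at 117, 173 and 172 CPM in CD8.1 and 2, 2.11 and 1.6 in CD8.2 samples. *Cd40lg*, the gene of CD40L, was at 84.8, 88.2 and 94 CPM in CD8.1 and 1.19, 1.5 and 1.43 in CD8.2 samples. The groups did not overlap in any of these 3 genes. *Foxp3*, which defines Treg cells, was at 102, 149 and 168 CPM in CD8.1 and 0.809, 1.45 and 1.46 in CD8.2 samples, so the CD8.1 samples held Treg transcripts beside helper transcripts. *Tbx21*, the gene of T-bet, was at 1.24, 1.42 and 1.71 CPM in CD8.1 and 14.3, 13.8 and 15.5 in CD8.2 samples, with the groups again apart. T cell receptor components such as *Cd3d* were abundant in both, at 801, 739.8 and 679.7 CPM in CD8.1 and 942, 984 and 976 in CD8.2 samples.

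Sample totals ran from 18667474 to 37110502 counts, and 3 counts, the smallest value taken as detectable, came to 0.0875 to 0.167 CPM, a floor that covers counting error only. CD8.2 sample 3 was the deepest and stood apart in *Gm42418* (3.14% of its counts, at most 0.236% in the other 5 samples) and *Lars2* (0.622%, at most 0.161%). CD8.1 sample 1 differed most from the other CD8.1 samples, and leaving it out gave 5013 called genes against 3771 with it. Without CD8.2 sample 3 there were 2632. Markers of other cells were present. B cell markers summed to 670 to 814 CPM in CD8.1 and 601 to 700 CPM in CD8.2 samples, most of it the immunoglobulin μ heavy chain, and 2 of 10 were higher in CD8.1 (1 without CD8.1 sample 1 or 2 or CD8.2 sample 3). Myeloid markers summed to 16.5 to 21.6 and 9.94 to 23.1 CPM (2 of 7 tested higher in CD8.1, 1 without CD8.1 sample 2 or CD8.2 sample 1 or 3), with *Cd14* at 0 counts in 5 of the 6 samples. Stromal and erythroid markers summed to 141 to 172 and 104 to 115 CPM, mainly *Pecam1*, which T cells also express, with *Pdpn* at 0 in all 6 samples, and 2 of 4 were higher in CD8.1 (1 without CD8.1 sample 2 or CD8.2 sample 1 or 3). The NK-restricted gene *Ncr1* was at or below 0.191 CPM in all 6 samples, and the part of other cells in the results below was not tested.

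The 2 directions differed in size more than in number. Of the 1956 genes called higher in CD8.1 T cells, 57.9% changed less than 2-fold and 290 more than 5-fold, with a median of 1.72-fold. Of the 1815 called higher in CD8.2 T cells, 79.2% changed less than 2-fold and 135 more than 5-fold, with a median of 1.41-fold. By the study's definition of a differentially expressed gene (DEG), a fold change over 5 at an unadjusted *P* under 0.05, 3.32% of tested genes were DEGs. DEGs higher in CD8.1 T cells came to 2.24% and those higher in CD8.2 T cells to 1.07%. Many of these were scarce: 60 of the former and 55 of the latter reached a mean of 10 CPM in the higher group. Protein-coding genes made up 275 of 294 and 100 of 141, and long intergenic or antisense RNAs 11 and 19.

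Cytotoxic effector genes were mostly higher in CD8.2 T cells, with 11 of 17 tested members higher there, 2 higher in CD8.1 T cells and a median log2 fold change of −1.93. *Nkg7*, a membrane protein of cytotoxic granules (chromosome 7, 43437073 to 43438249), was at 8.83, 9.64 and 7.22 CPM in CD8.1 and 371, 434 and 417 in CD8.2 samples (log2 fold change −5.57 ± 0.18, adjusted *P* = 7.7e-12). The lowest CD8.2 sample lay far above the highest CD8.1 sample. *Prf1*, the gene of the pore-forming protein perforin, was at 40.3, 36.9 and 49.6 CPM in CD8.1 and 160.1, 163 and 159 in CD8.2 samples (log2 fold change −1.93 ± 0.17, adjusted *P* = 5.8e-07). The groups were apart, yet CD8.1 T cells kept a readable level of it. *Gzmm*, a granzyme of cytotoxic lymphocytes, was at 0.430, 0.531 and 0.427 CPM in CD8.1 and 6.26, 6.45 and 5.6 in CD8.2 samples (log2 fold change −3.70 ± 0.19, adjusted *P* = 1.4e-09). *Xcl1*, a chemokine that draws cross-presenting dendritic cells, was at 0.764, 1.02 and 1.33 CPM in CD8.1 and 11, 14.8 and 10.7 in CD8.2 samples (log2 fold change −3.54 ± 0.25, adjusted *P* = 3.3e-08). Both were low in CD8.1 T cells and did not overlap between the groups. *Eomes*, the T-box factor next to T-bet in this program, was at 7.02, 13.1 and 9.59 CPM in CD8.1 and 81, 78.1 and 75.6 in CD8.2 samples (log2 fold change −2.98 ± 0.21, adjusted *P* = 3.4e-08), with CD8.1 sample 1 the lowest. *Crtam*, an adhesion receptor of cytotoxic cells, and *Ctsw*, the cathepsin W of cytotoxic granules, fell in the same direction (−2.76 ± 0.12 and −2.25 ± 0.09). Among the exceptions was *Gzmb*, the gene of granzyme B, at 6.97, 5.13 and 5.08 CPM in CD8.1 and 1.02, 1.06 and 0.758 in CD8.2 samples (log2 fold change 2.62 ± 0.34, adjusted *P* = 3.1e-05). *Fasl*, the ligand of the death receptor Fas, was at 6.3, 4.6 and 7.5 CPM in CD8.1 and 0.724, 1.06 and 0.437 in CD8.2 samples (log2 fold change 3.13 ± 0.27, adjusted *P* = 5e-07). For both, every CD8.1 sample exceeded every CD8.2 sample. *Serpinb9*, the gene of an inhibitor that guards cells against granzyme B, and the related *Serpinb6b* were higher in CD8.2 T cells by less than 2-fold (−0.77 ± 0.13 and −0.72 ± 0.16). NK markers divided, with a median of −0.456. Of 6 tested, 3 were higher in CD8.2 T cells and 2 in CD8.1 T cells (0 to 1 without CD8.1 sample 2 or 3 or any 1 CD8.2 sample). The NK markers summed to 376 to 441 CPM in CD8.2 samples, most of it *Nkg7*, which is also an effector gene. In CD8.1 samples they summed to 11.7 to 19.3 CPM, and their part in the counts of effector genes was not tested.

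**Figure D1:**
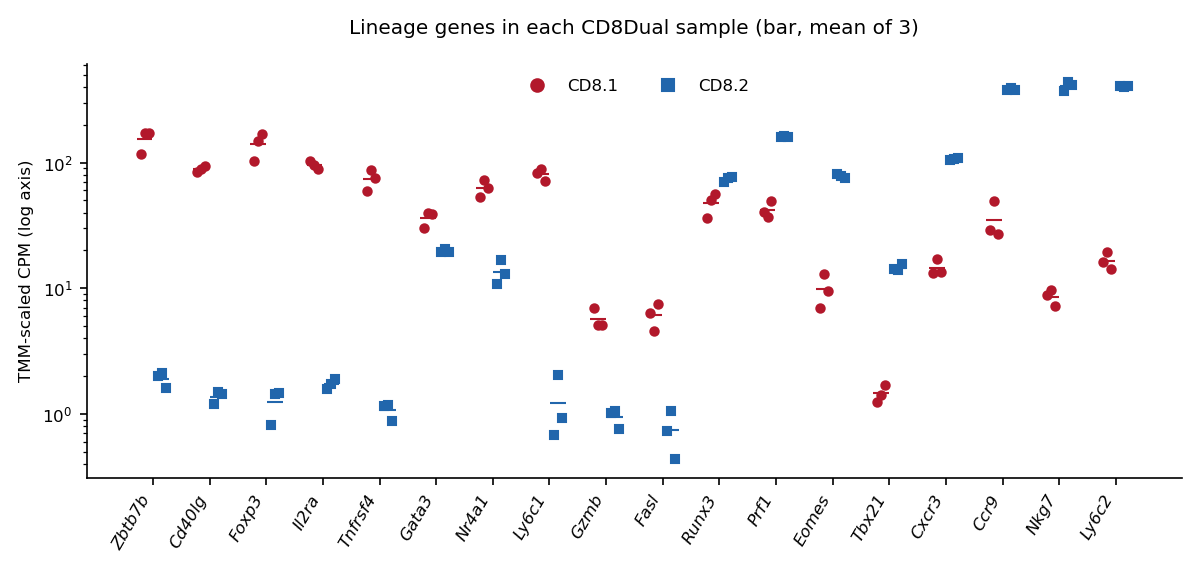
TMM-scaled CPM (log axis) of 18 lineage genes in each CD8Dual sample, with circles for CD8.1, squares for CD8.2 and a bar at the mean of 3 samples. *Zbtb7b* lies at 117 to 173 CPM in CD8.1 and 1.6 to 2.11 CPM in CD8.2 samples, *Nkg7* the other way round, and *Gzmb* and *Fasl* lie with the genes higher in CD8.1.

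The 250 bases before the RefSeq start of 4 of these effector genes are shown. They are the 4 with the Runx letters among the 8 effectors higher in CD8.2 T cells with a sequence. That each carries a short motif that Runx or T-box factors are known to bind thus follows from this choice. The Runx letters are TGTGGT, or ACCACA on the other strand, and the T-box letters GGTGTGA, searched on both strands. *Nkg7* and *Xcl1* carry both motifs, *Prf1* and *Gzmm* the Runx letters alone. Capitals mark the motifs, which nowhere overlap. The RefSeq starts differ from those of the gene positions given elsewhere, which are GENCODE's, so the windows of *Nkg7*, *Prf1* and *Xcl1* end inside the GENCODE gene, and the T-box letters of *Nkg7* lie inside it. Sequences are those of RefSeq on GRCm38.p6, 5′ to 3′ in the direction of transcription, and lie at chr7:43436888-43437137 (plus strand) for *Nkg7*, chr10:61297586-61297835 (plus) for *Prf1*, chr1:164935523-164935772 (minus) for *Xcl1* and chr10:79688770-79689019 (plus) for *Gzmm*.
*Nkg7*: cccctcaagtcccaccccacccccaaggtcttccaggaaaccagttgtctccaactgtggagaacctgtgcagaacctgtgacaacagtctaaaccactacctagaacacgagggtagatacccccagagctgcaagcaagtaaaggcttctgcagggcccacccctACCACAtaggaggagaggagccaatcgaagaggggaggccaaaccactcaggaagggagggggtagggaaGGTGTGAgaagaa
*Prf1*: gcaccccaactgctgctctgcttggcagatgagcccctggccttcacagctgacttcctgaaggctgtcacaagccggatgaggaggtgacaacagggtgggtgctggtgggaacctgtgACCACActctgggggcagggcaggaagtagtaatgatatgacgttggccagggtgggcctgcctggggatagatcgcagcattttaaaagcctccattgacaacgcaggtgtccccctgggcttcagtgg
*Xcl1*: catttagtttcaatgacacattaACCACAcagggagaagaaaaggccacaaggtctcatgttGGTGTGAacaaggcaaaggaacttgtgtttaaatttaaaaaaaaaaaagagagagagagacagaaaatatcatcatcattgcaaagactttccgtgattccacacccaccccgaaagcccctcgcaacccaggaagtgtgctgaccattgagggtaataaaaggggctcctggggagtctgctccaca
*Gzmm*: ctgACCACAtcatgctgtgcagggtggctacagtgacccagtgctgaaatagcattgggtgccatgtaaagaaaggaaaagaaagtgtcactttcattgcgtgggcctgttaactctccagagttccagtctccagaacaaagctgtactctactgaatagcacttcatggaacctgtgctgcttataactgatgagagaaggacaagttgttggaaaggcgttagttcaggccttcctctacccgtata
A promoter sequence was at hand for 8864 of the tested genes. Of these, 11% held the Runx letters and 2.73% the T-box letters in that window. Among the 83 DEGs higher in CD8.2 T cells with a sequence, 22.9% and 7.23% did, and among the 207 higher in CD8.1 T cells 13% and 3.38%. Of the 8 cytotoxic effectors higher in CD8.2 T cells with a sequence, 4 held the Runx letters and 2 the T-box letters. Of the 2 higher in CD8.1 T cells with a sequence, 1, *Gzmb*, held the Runx letters and 0 the T-box letters. Over all 14 tested effectors with a sequence, called or not, these counts were 6 and 4. For the killer lectin-like receptor genes described below they were 3 and 0 of the 9 higher in CD8.2 T cells. Over all 13 tested members of that family with a sequence they were 6 and 0. A match is a run of letters and not a shown binding site, and the motifs were picked with the expression results known.

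Genes of lineage choice split, with 6 of 20 tested members higher in CD8.1, 4 higher in CD8.2 and a median of 0.0911. *Runx1*, the gene of a Runx factor needed from early thymic stages, was at 73.9, 73.6 and 83.1 CPM in CD8.1 and 32.2, 39.3 and 33.7 in CD8.2 samples (log2 fold change 1.13 ± 0.11, adjusted *P* = 2.4e-06). *Gata3*, which acts upstream of *Zbtb7b* and drives Th2 differentiation, was at 30.0, 39.4 and 38.8 CPM in CD8.1 and 19.3, 20.7 and 19.4 in CD8.2 samples (log2 fold change 0.87 ± 0.10, adjusted *P* = 1.2e-05). *Runx3* was at 35.9, 50.6 and 56 CPM in CD8.1 and 70.6, 74.7 and 77.2 in CD8.2 samples (log2 fold change −0.64 ± 0.14, adjusted *P* = 0.0028), a change of under 2-fold. All 3 genes kept the groups apart. *Runx2*, a further member of that family, was low, at 2.82, 2.79 and 2.85 CPM in CD8.1 and 6.85, 6.83 and 6.42 in CD8.2 samples (log2 fold change −1.25 ± 0.17, adjusted *P* = 5.3e-05). *Tox*, needed for CD4 T cell development, was modestly higher in CD8.1 T cells (0.60 ± 0.11).

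Genes of helper costimulation were higher in CD8.1 T cells in 10 of 15 cases and higher in CD8.2 T cells in 3 (1 without CD8.1 sample 3), with a median of 1.22. *Tnfrsf4*, the gene of the costimulatory receptor OX40, was at 58.9, 86.8 and 75.8 CPM in CD8.1 and 1.15, 1.17 and 0.875 in CD8.2 samples (log2 fold change 6.15 ± 0.28, adjusted *P* = 2.8e-10). *Maf*, a transcription factor of Th2 and follicular helper cells, was at 15.7, 12.9 and 12.6 CPM in CD8.1 and 0.681, 0.722 and 0.583 in CD8.2 samples (log2 fold change 4.39 ± 0.22, adjusted *P* = 6.3e-10). *Tnfsf11*, the gene of the ligand RANKL, was at 11.7, 12.3 and 8.6 CPM in CD8.1 and 1.02, 1.39 and 0.671 in CD8.2 samples (log2 fold change 3.46 ± 0.34, adjusted *P* = 2.2e-06). In these 3 genes every CD8.1 sample was at least 6 times the CD8.2 samples. *Icos* and *Cd28*, costimulatory receptors that most T cells use, differed by about a doubling (0.97 ± 0.15 and 1.22 ± 0.12). The cytokine gene *Il21* was scarce, with 37 counts over the CD8.1 and 6 over the CD8.2 samples, a ratio of 7.23 (95% interval 3.03 to 21 from counting error alone) and a fitted log2 fold change of 2.77 (3.37 without CD8.2 sample 2). In the opposite direction went *Cxcr5*, which guides cells to B cell follicles, at 27.7, 32 and 30.1 CPM in CD8.1 and 45.4, 52.6 and 47.4 in CD8.2 samples (log2 fold change −0.69 ± 0.09, adjusted *P* = 2.6e-05).

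Among lists of at least 10 tested genes, Treg markers had the highest share moving 1 way, with 17 of 19 tested members higher in CD8.1 T cells, 1 higher in CD8.2 T cells and a median of 3.47. Their summed level was 1130 to 1290 CPM in CD8.1 against 286 to 299 CPM in CD8.2 samples. *Lrrc32*, which encodes the surface protein GARP that holds latent TGFβ, was at 27.9, 39.2 and 37 CPM in CD8.1 and 0.255, 0.278 and 0.117 in CD8.2 samples (log2 fold change 7.41 ± 0.28, adjusted *P* = 3.5e-11), the largest fold among genes with a mean of at least 10 CPM in the higher group. *Il2ra*, the high-affinity chain of the IL-2 receptor (CD25), was at 102, 95.3 and 89.2 CPM in CD8.1 and 1.57, 1.72 and 1.9 in CD8.2 samples (log2 fold change 5.77 ± 0.19, adjusted *P* = 7.7e-12). *Nrp1*, a surface protein of thymus-derived Treg cells, was at 56.1, 46.5 and 46.4 CPM in CD8.1 and 2.38, 2.44 and 2.01 in CD8.2 samples (log2 fold change 4.46 ± 0.19, adjusted *P* = 1.5e-10). In each of these 3 genes the lowest CD8.1 sample was above the highest CD8.2 sample by over 10-fold. *Ctla4*, an inhibitory receptor that Treg cells use, was at 29.6, 23.7 and 20.1 CPM in CD8.1 and 3.45, 4.45 and 4.23 in CD8.2 samples (log2 fold change 2.60 ± 0.21, adjusted *P* = 1.8e-07). *Ikzf2*, the gene of Helios, was at 37.2, 22.7 and 21.6 CPM in CD8.1 and 1.79, 2.89 and 2.68 in CD8.2 samples (log2 fold change 3.47 ± 0.33, adjusted *P* = 1.3e-06). All 5 kept the groups apart, with the largest spread among CD8.1 samples in *Ikzf2*. The folate receptor family gene *Izumo1r* was the most abundant of the list in CD8.1 T cells, at 313, 394 and 342 CPM in CD8.1 and 41.9, 53.8 and 43.5 in CD8.2 samples (log2 fold change 2.92 ± 0.11, adjusted *P* = 5.1e-11). *Itgae*, which encodes the αE chain that binds E-cadherin and is found on both Treg and CD8+ cells, was lower in CD8.1 T cells, at 31.1, 28.5 and 27.6 CPM in CD8.1 and 102, 99.2 and 101 in CD8.2 samples (log2 fold change −1.79 ± 0.13, adjusted *P* = 6.7e-08).

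TNF receptor genes followed, with 8 of 20 tested members higher in CD8.1 T cells and 1 higher in CD8.2, and a median of 0.485. Beside *Tnfrsf4*, they included *Tnfrsf25*, the receptor of TL1A, at 38.3, 44.1 and 46.9 CPM in CD8.1 and 12.3, 12.1 and 12.3 in CD8.2 samples (log2 fold change 1.82 ± 0.10, adjusted *P* = 2.3e-09). *Tnfrsf9*, the gene of 4-1BB, was at 37, 47.7 and 40.1 CPM in CD8.1 and 12.9, 15.9 and 12.3 in CD8.2 samples (log2 fold change 1.61 ± 0.16, adjusted *P* = 2.4e-06). The TRAIL receptor gene *Tnfrsf10b* was lower (−0.88 ± 0.21). Of 11 TNF family ligands, 6 were higher in CD8.1 T cells and 3 in CD8.2 T cells (0 to 1 without CD8.1 sample 2 or 3 or CD8.2 sample 2 or 3). *Tnf* itself was at 13, 15.5 and 14.3 CPM in CD8.1 and 6.3, 5.56 and 5.77 in CD8.2 samples (log2 fold change 1.28 ± 0.16, adjusted *P* = 2.4e-05). *Lta*, encoding lymphotoxin α, was at 19.7, 26.6 and 26.7 CPM in CD8.1 and 10.7, 10.3 and 11.7 in CD8.2 samples (log2 fold change 1.15 ± 0.12, adjusted *P* = 5.5e-06). The 2 cytokine genes thus roughly doubled in CD8.1 T cells with no overlap.

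Markers of innate memory CD8+ T cells, which acquire memory-like features without foreign antigen, were mostly higher in CD8.2 T cells. They were higher there in 11 of 14 cases and in CD8.1 T cells in 3, with a median of −2.39. For B6 CD4+ over CD8+ T cells the median of this list was −4.13, so its direction is not particular to CD8Dual mice. *Cxcr3*, the receptor of interferon-induced chemokines, was at 13.3, 17 and 13.5 CPM in CD8.1 and 105, 107 and 109 in CD8.2 samples (log2 fold change −2.87 ± 0.15, adjusted *P* = 1e-09). *Il18rap*, a chain of the IL-18 receptor, was at 5.97, 4.91 and 3.66 CPM in CD8.1 and 26.1, 26.8 and 23.7 in CD8.2 samples (log2 fold change −2.39 ± 0.28, adjusted *P* = 1.1e-05). *Ccl5*, a chemokine stored by memory CD8+ T cells, was at 4.2, 5.62 and 4.65 CPM in CD8.1 and 26.6, 23.2 and 25.6 in CD8.2 samples (log2 fold change −2.38 ± 0.17, adjusted *P* = 5.4e-08). In each the lowest CD8.2 sample was well above the highest CD8.1 sample. *Il2rb*, the shared β chain of the IL-2 and IL-15 receptors and the surface marker CD122, differed little, at 246, 257 and 223 CPM in CD8.1 and 303, 332 and 313 in CD8.2 samples (log2 fold change −0.39 ± 0.09, adjusted *P* = 0.0063). *Cd44* went the other way, at 77.8, 67.9 and 70.3 CPM in CD8.1 and 49.5, 60.1 and 55.9 in CD8.2 samples (log2 fold change 0.38 ± 0.12, adjusted *P* = 0.021), although the methods describe both populations as CD44−, and this call was lost without CD8.1 sample 1 or CD8.2 sample 1 or 3 (0.30 to 0.39).

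Ly6 genes gave opposite results for a pair of near neighbours on chromosome 15. *Ly6c2* (75108158 to 75111970) was at 16.3, 19.3 and 14.2 CPM in CD8.1 and 408, 401 and 411 in CD8.2 samples (log2 fold change −4.61 ± 0.14, adjusted *P* = 5.8e-12). *Ly6c1* (75044018 to 75048830) was at 83.4, 88.6 and 71.7 CPM in CD8.1 and 0.681, 2.06 and 0.933 in CD8.2 samples (log2 fold change 6.15 ± 0.22, adjusted *P* = 2.1e-11). Each gene was abundant in one population and low in the other, and since the transcripts are alike, reads may be split between them in counting. Over 229 aligned bases their promoters, at chr15:75111972-75112221 and chr15:75048838-75049087 on the minus strand, were identical at 168 (73.4%). The Runx letters, in capitals, are found in the first alone.
*Ly6c2*: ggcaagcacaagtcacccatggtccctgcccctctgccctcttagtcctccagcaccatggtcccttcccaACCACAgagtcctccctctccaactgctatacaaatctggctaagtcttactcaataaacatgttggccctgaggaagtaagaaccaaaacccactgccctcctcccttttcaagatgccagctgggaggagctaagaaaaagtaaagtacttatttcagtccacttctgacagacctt
*Ly6c1*: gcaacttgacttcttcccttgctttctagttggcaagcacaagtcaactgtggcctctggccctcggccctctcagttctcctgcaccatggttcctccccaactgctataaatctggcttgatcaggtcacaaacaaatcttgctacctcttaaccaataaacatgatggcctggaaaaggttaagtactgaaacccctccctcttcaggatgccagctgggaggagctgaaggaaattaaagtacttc
*Ly6a*, the gene of Sca-1, was higher in CD8.1 T cells (1.46 ± 0.10), and in all 4 of the 6 tested family members were higher there and 1 lower.

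Killer lectin-like receptor genes, which encode inhibitory and activating receptors for MHC-I and related ligands on NK cells and cytotoxic T cells, were higher in CD8.2 T cells in 10 of 15 cases, with a median of −2.65. *Klrd1*, the gene of CD94, was by far the most abundant in CD8.2 samples, at 9.55, 5.84 and 4.8 CPM in CD8.1 and 117, 120.0 and 119 in CD8.2 samples (log2 fold change −4.14 ± 0.17, adjusted *P* = 1.1e-10). Its partner *Klrc1*, encoding NKG2A, was at 0.0955, 0.310 and 0.142 CPM in CD8.1 and 1.96, 1.22 and 1.43 in CD8.2 samples (log2 fold change −3.02 ± 0.37, adjusted *P* = 2.1e-05), or −3.64 without CD8.1 sample 2. The highest of the Ly49 genes was *Klra3* at 0.334, 0.265 and 0.570 CPM in CD8.1 and 3.19, 3.78 and 3.53 in CD8.2 samples, and *Klra6* and *Klra8* had 0 counts in all 3 CD8.1 samples. Ly49 genes are near-identical to each other, so single members are uncertain. *Klrg1*, an inhibitory receptor for cadherins, was the 1 gene higher in CD8.1 T cells, at 10.8, 11.8 and 6.74 CPM in CD8.1 and 0.213, 0 and 0.204 in CD8.2 samples (log2 fold change 5.92 ± 0.43, adjusted *P* = 5.4e-08). Of the NKT cell markers, 3 of 6 tested were higher in CD8.1 T cells and 2 in CD8.2 T cells (1 without CD8.1 sample 1 or 3 or CD8.2 sample 1 or 2), with summed levels of 71.2 to 80.9 and 220 to 241 CPM. *Zbtb16*, the gene of the NKT factor PLZF, was too scarce to be tested, at 0.191, 1.02 and 0.570 CPM in CD8.1 and 0.0426, 0 and 0 in CD8.2 samples. The γδ T cell markers tested were all 5 higher in CD8.1 T cells, at low levels (20.6 to 24.3 CPM summed against 10.0 to 13.0 CPM). Their part in the results was not tested.

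Genes used as readouts of TCR signal strength were higher in CD8.1 T cells in 13 of 20 cases and lower in 1, with a median of 0.586. *Nr4a1*, the gene of Nur77, an early product of TCR signalling, was at 53.2, 72.6 and 63.2 CPM in CD8.1 and 10.8, 16.7 and 13 in CD8.2 samples (log2 fold change 2.23 ± 0.21, adjusted *P* = 1.4e-06). *Cd5*, an inhibitory surface protein set by the strength of self-recognition, was at 380.3, 464 and 487 CPM in CD8.1 and 208, 185 and 199.7 in CD8.2 samples (log2 fold change 1.17 ± 0.09, adjusted *P* = 9.7e-08). *Irf4*, a factor graded with TCR signal, was at 39, 30.6 and 36.5 CPM in CD8.1 and 15, 19.8 and 16.6 in CD8.2 samples (log2 fold change 1.05 ± 0.16, adjusted *P* = 0.00014). All 3 were about 2 to 5 times higher in CD8.1 T cells, with no overlap. The early response genes *Egr1*, *Egr3* and *Nr4a3* rose with them (0.90 ± 0.16, 1.05 ± 0.17 and 1.09 ± 0.14). *Ptpn22*, a phosphatase that restrains proximal TCR signalling, was lower, at 139, 169.5 and 170.4 CPM in CD8.1 and 288, 281 and 285 in CD8.2 samples (log2 fold change −0.83 ± 0.09, adjusted *P* = 4.3e-06).

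Among phosphatases and Sprouty proteins that restrain MAP kinases, 5 of 15 tested members were higher in CD8.1 T cells and 1 was lower (0 without CD8.1 sample 2 or 3 or CD8.2 sample 1 or 3, 3 without CD8.1 sample 1), while the median stayed at 0.0256. *Dusp5*, which acts on nuclear ERK, was at 38.1, 37.2 and 41.2 CPM in CD8.1 and 12.6, 14.3 and 14.8 in CD8.2 samples (log2 fold change 1.48 ± 0.11, adjusted *P* = 5.1e-08). *Dusp4* was at 13.6, 11.7 and 10.5 CPM in CD8.1 and 1.06, 2.28 and 1.05 in CD8.2 samples (log2 fold change 3.08 ± 0.27, adjusted *P* = 5.5e-07). *Spry1* was at 4.96, 5.04 and 5.18 CPM in CD8.1 and 1.49, 1.39 and 1.05 in CD8.2 samples (log2 fold change 1.96 ± 0.24, adjusted *P* = 2e-05). These 3 passed and separated the groups. *Dusp6*, a cytoplasmic ERK phosphatase, was at 32.5, 32.2 and 35.5 CPM in CD8.1 and 36.9, 42.4 and 39.9 in CD8.2 samples and did not pass (adjusted *P* = 0.064), although its groups did not overlap. *Dusp14* had 67 counts in CD8.1 samples against 2 (ratio 39.3, 95% counting interval 10.5 to 331), and its fitted log2 fold change of 5.01 was 7.59 without CD8.2 sample 1 and 4.27 without CD8.2 sample 3. Components of the proximal TCR pathway went both ways, with 6 of 32 higher in CD8.1 (10 without CD8.1 sample 1), 10 of 32 higher in CD8.2 and a median of −0.0204. *Themis*, needed for positive selection, was at 205, 170.1 and 169.7 CPM in CD8.1 and 287, 317 and 296 in CD8.2 samples (log2 fold change −0.72 ± 0.10, adjusted *P* = 4.4e-05). The adaptor genes *Sla2* and *Grap2* were lower in CD8.1 T cells as well (−0.75 ± 0.09 and −0.56 ± 0.09), and *Cd247*, the ζ chain, was higher (0.51 ± 0.10), none of them by as much as 2-fold.

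Cytokine receptor genes divided, with 14 of 33 tested members higher in CD8.1, 9 of 33 higher in CD8.2 and a median of 0.0766. Those higher in CD8.1 T cells included receptors that type 2 and Treg cells use. *Il1rl1*, the gene of the IL-33 receptor ST2, was at 13.6, 13.1 and 8.79 CPM in CD8.1 and 0.0851, 0.111 and 0.0875 in CD8.2 samples, that is 766 counts against 7 (ratio 128, 95% counting interval 62 to 320, adjusted *P* = 2.8e-08). *Il17rb*, a receptor chain for IL-25, had 138 counts in CD8.1 samples and 1 in CD8.2 samples (ratio 162, interval 28.6 to 6440), and its fitted log2 fold change of 6.85 was 8.65 without CD8.2 sample 1 and 6.18 without CD8.2 sample 3. *Il1r2*, the decoy receptor of IL-1, and *Il9r*, the IL-9 receptor, were also higher (5.21 ± 0.59 and 2.87 ± 0.37). *Il4ra*, the receptor chain for IL-4 and IL-13, was abundant in both, at 279, 337 and 318 CPM in CD8.1 and 226, 234 and 234 in CD8.2 samples (log2 fold change 0.43 ± 0.08, adjusted *P* = 0.00085). Those higher in CD8.2 T cells included receptors of cytokines that drive interferon-γ responses. *Il18r1* was at 32.2, 18.8 and 25.7 CPM in CD8.1 and 57.4, 51.2 and 54.5 in CD8.2 samples (log2 fold change −1.09 ± 0.15, adjusted *P* = 7.2e-05). *Ifngr1*, the binding chain of the interferon-γ receptor, was at 142, 121 and 129 CPM in CD8.1 and 213, 234 and 236 in CD8.2 samples (log2 fold change −0.80 ± 0.07, adjusted *P* = 8.5e-07). *Il15ra* was at 2.67, 3.98 and 3.85 CPM in CD8.1 and 6.68, 6.33 and 6.94 in CD8.2 samples (log2 fold change −0.93 ± 0.17, adjusted *P* = 0.00079). No sample overlapped in these 3. *Ifngr2*, the signalling chain of the same interferon-γ receptor, was higher in CD8.1 T cells, at 42.3, 49.9 and 53.4 CPM in CD8.1 and 27.2, 25.3 and 27.3 in CD8.2 samples (log2 fold change 0.87 ± 0.10, adjusted *P* = 1.1e-05).

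Downstream of these receptors, JAK, STAT and SOCS genes split evenly (5 of 21 in each direction, median −0.0793). The cytokine-induced inhibitors *Socs2* and *Cish* gave the widest gaps, *Socs2* at 6.16, 5.13 and 5.22 CPM in CD8.1 and 0.383, 0.389 and 0.379 in CD8.2 samples (log2 fold change 3.83 ± 0.28, adjusted *P* = 5.1e-08). *Cish* was at 26.1, 29 and 26.8 CPM in CD8.1 and 3.96, 4.11 and 3.91 in CD8.2 samples (log2 fold change 2.78 ± 0.13, adjusted *P* = 4.7e-10). *Stat4*, which relays IL-12, was at 36.1, 37 and 44.6 CPM in CD8.1 and 96.1, 91.7 and 95.4 in CD8.2 samples (log2 fold change −1.27 ± 0.12, adjusted *P* = 1.6e-06). The related kinase genes *Pim1* and *Pim2* went in opposite directions, with log2 fold changes of 1.45 ± 0.10 and −0.91 ± 0.10.

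Chemokine and trafficking receptors divided in a like way, with 13 of 26 tested members higher in CD8.1, 6 of 26 higher in CD8.2 and a median of 0.276. *Ccr4*, a receptor of Th2 and Treg cells, was at 28.2, 38.2 and 26.4 CPM in CD8.1 and 2.43, 2.39 and 1.66 in CD8.2 samples (log2 fold change 3.87 ± 0.27, adjusted *P* = 3.2e-08). *Ccr3*, the eotaxin receptor, had 178 counts in CD8.1 samples and 3 in CD8.2 samples, all in CD8.2 sample 3 (ratio 69.6, 95% counting interval 23.4 to 341), and its fitted log2 fold change of 5.97 was 8.95 without that sample. *Ccr8*, found on Treg and Th2 cells, was at 6.87, 9.38 and 5.84 CPM in CD8.1 and 0.383, 0.445 and 0.321 in CD8.2 samples (log2 fold change 4.29 ± 0.47, adjusted *P* = 5.9e-06). *Ccr6*, which marks Th17 and Treg cells, was at 12.4, 9.64 and 11.3 CPM in CD8.1 and 2.04, 1.67 and 0.992 in CD8.2 samples (log2 fold change 2.86 ± 0.27, adjusted *P* = 1.2e-06). None of these receptors overlapped between the groups. The largest rise in CPM toward CD8.2 T cells was that of *Ccr9*, which guides cells to the small intestine, at 29.2, 49.4 and 27.1 CPM in CD8.1 and 382, 396 and 378 in CD8.2 samples (log2 fold change −3.45 ± 0.24, adjusted *P* = 3.8e-08). *Cxcr6*, whose ligand is CXCL16, was at 16.5, 10.5 and 10.3 CPM in CD8.1 and 174, 194 and 194 in CD8.2 samples (log2 fold change −3.91 ± 0.14, adjusted *P* = 2.7e-11). Genes of LN entry and exit changed little. *Ccr7*, which guides cells into LN, was at 764, 754 and 763 CPM in CD8.1 and 639.6, 679 and 687 in CD8.2 samples (log2 fold change 0.19 ± 0.07, adjusted *P* = 0.045). *S1pr1*, which guides their exit, was at 848, 998 and 963 CPM in CD8.1 and 654, 683 and 702 in CD8.2 samples (log2 fold change 0.46 ± 0.08, adjusted *P* = 0.00034). Both were higher in CD8.1 T cells by less than 1.5-fold, and the call of *Ccr7* was lost when any 1 sample was left out (0.15 to 0.20). *Gpr183*, the oxysterol receptor EBI2, was higher in CD8.1 T cells (0.95 ± 0.11).

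**Figure D2:**
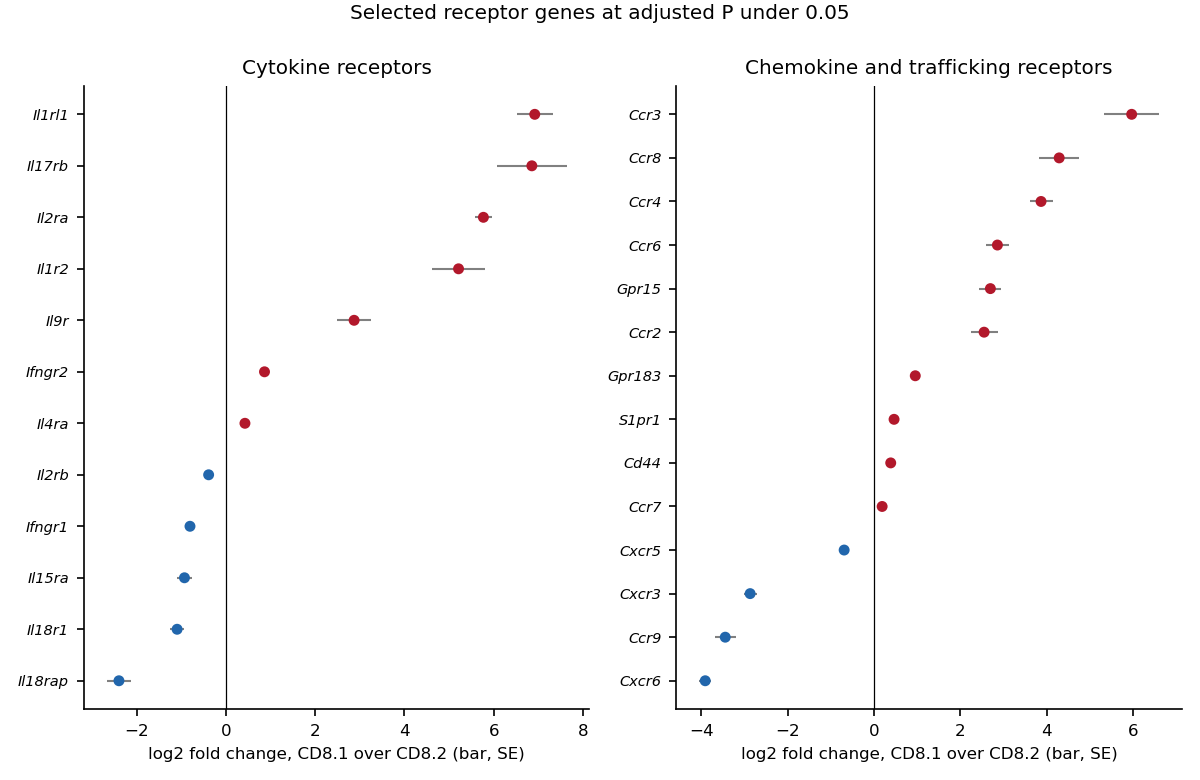
Log2 fold change (CD8.1 over CD8.2, bars SE) of the cytokine receptor genes (left) and the chemokine and trafficking receptor genes (right) that are named in the text and passed at an adjusted *P* under 0.05. Points right of 0 are higher in CD8.1 T cells, up to *Il1rl1* and *Ccr3*, and points left of 0 are higher in CD8.2 T cells, down to *Il18rap* and *Cxcr6*.

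Of 16 tested integrin genes, 8 were higher in CD8.1 T cells and 2 were lower, with a median of 0.313. *Itgb3*, the β3 chain, was at 142, 159 and 145 CPM in CD8.1 and 24.5, 25.3 and 23.6 in CD8.2 samples (log2 fold change 2.60 ± 0.10, adjusted *P* = 5.1e-11). *Itga6*, a laminin-binding chain, was at 205, 198 and 211 CPM in CD8.1 and 121, 119 and 135 in CD8.2 samples (log2 fold change 0.71 ± 0.07, adjusted *P* = 2.6e-06). *Itgb8*, whose product activates latent TGFβ, had 172 counts against 6 (ratio 33.6, 95% counting interval 15.1 to 92.9). The first 2 were well expressed in both populations, the last in CD8.1 samples alone above 0.167 CPM.

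Inhibitory and activating coreceptors of the immunoglobulin superfamily and related receptors divided into 9 of 16 higher in CD8.1 and 5 of 16 lower there, with a median of 0.601. *Pdcd1*, the gene of PD-1, was at 14.8, 19.1 and 14.5 CPM in CD8.1 and 2.94, 2.56 and 2.74 in CD8.2 samples (log2 fold change 2.55 ± 0.20, adjusted *P* = 1e-07). *Tigit* was at 18.6, 18 and 11.9 CPM in CD8.1 and 0.809, 1.89 and 1.37 in CD8.2 samples (log2 fold change 3.60 ± 0.31, adjusted *P* = 4.7e-07). *Cd226*, the activating receptor that competes with TIGIT for its ligands, was at 52, 37.2 and 42.5 CPM in CD8.1 and 136, 132 and 139.8 in CD8.2 samples (log2 fold change −1.63 ± 0.10, adjusted *P* = 1e-08). TIGIT and its competitor thus moved in opposite directions, each with no overlap. *Cd160*, a receptor for HVEM, was lower in CD8.1 T cells (−2.0 ± 0.21) and *Btla*, another receptor for HVEM, was higher (0.62 ± 0.12).

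Transcription factors of effector programs were higher in CD8.1 T cells in 12 of 21 cases and lower in 4, with a median of 0.5. *Prdm1*, the gene of Blimp-1, was at 7.59, 6.86 and 7.6 CPM in CD8.1 and 1.62, 2.89 and 2.45 in CD8.2 samples (log2 fold change 1.67 ± 0.22, adjusted *P* = 3.9e-05). *Sox4* was at 15.7, 20.7 and 16.8 CPM in CD8.1 and 5.92, 4.56 and 4.93 in CD8.2 samples (log2 fold change 1.78 ± 0.18, adjusted *P* = 2.3e-06). *Bhlhe40*, a regulator of cytokine production, was at 6.06, 7.3 and 5.84 CPM in CD8.1 and 1.28, 1.28 and 0.875 in CD8.2 samples (log2 fold change 2.51 ± 0.28, adjusted *P* = 8.2e-06). All 3 were more than 3 times higher in CD8.1 T cells. *Ikzf3*, the gene of Aiolos, was lower (−0.44 ± 0.09). Genes of naive T cell quiescence were mostly alike, with 8 of 22 higher in CD8.1 (3 to 4 without CD8.1 sample 2 or 3 or any 1 CD8.2 sample), 2 of 22 higher in CD8.2 (5 without CD8.1 sample 1, 1 without CD8.1 sample 2 or CD8.2 sample 2 or 3) and a median of 0.0545. *Btg2*, an antiproliferative factor, was at 320.3, 332 and 326 CPM in CD8.1 and 218, 243 and 246 in CD8.2 samples (log2 fold change 0.47 ± 0.10, adjusted *P* = 0.0022).

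Genes of prostaglandin, adenosine and cAMP signalling were higher in CD8.1 T cells in 8 of 20 cases and in CD8.2 T cells in 6, with a median of 0.248. *Ptgir*, the prostacyclin receptor, had 263 counts in CD8.1 samples and 1 in CD8.2 samples (ratio 308, 95% counting interval 54.9 to 12200). The fitted log2 fold change of *Ptgir* was 7.78, or 9.57 without CD8.2 sample 1 and 7.09 without CD8.2 sample 3. *Ptger4*, a receptor of prostaglandin E2, was at 59.2, 55.1 and 60.9 CPM in CD8.1 and 26.3, 30.7 and 30.1 in CD8.2 samples (log2 fold change 1.01 ± 0.11, adjusted *P* = 4.5e-06). A pair of cAMP-degrading enzymes went the other way. *Pde7a* was at 38.6, 38.2 and 39.5 CPM in CD8.1 and 84.2, 92.2 and 90.0 in CD8.2 samples (log2 fold change −1.20 ± 0.09, adjusted *P* = 1e-07). *Pde3b* was at 97, 76.6 and 86 CPM in CD8.1 and 149, 145 and 150.5 in CD8.2 samples (log2 fold change −0.78 ± 0.10, adjusted *P* = 2.2e-05). The groups did not overlap in these genes. The adenylyl cyclase genes divided, with *Adcy6* higher (1.24 ± 0.13) and *Adcy7* lower (−0.74 ± 0.09) in CD8.1 T cells.

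Enzymes that build gangliosides and other glycans were higher in CD8.1 T cells in 15 of 27 cases and lower in 3 (6 without CD8.1 sample 1), with a median of 0.329. *St8sia6*, an α2,8-sialyltransferase, was at 159.7, 126 and 147 CPM in CD8.1 and 3.7, 5 and 4.26 in CD8.2 samples (log2 fold change 5.07 ± 0.12, adjusted *P* = 2.3e-13). *St3gal2*, an α2,3-sialyltransferase of gangliosides and O-glycans, was at 16.5, 18.6 and 19.1 CPM in CD8.1 and 2.55, 1.95 and 2.19 in CD8.2 samples (log2 fold change 3.01 ± 0.17, adjusted *P* = 2.6e-09). *St3gal6*, another enzyme of that α2,3 family, was at 23.1, 17 and 21 CPM in CD8.1 and 55, 53.3 and 55.5 in CD8.2 samples (log2 fold change −1.42 ± 0.12, adjusted *P* = 3.9e-07). Sialyltransferase genes thus changed in both directions, with no overlap in these 3. *Fut7*, which completes selectin ligands, was scarce and higher in CD8.1 T cells (1.94 ± 0.39).

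Of 99 potassium channel genes, 49 had 0 counts in all 6 samples and 21 were tested, 7 of them higher in CD8.1 (3 to 4 without CD8.1 sample 2 or CD8.2 sample 1 or 3), while 4 were higher in CD8.2 T cells. The voltage-gated channel gene *Kcnc1* was at 0.382, 0.531 and 0.475 CPM in CD8.1 and 16.2, 22.2 and 17.9 in CD8.2 samples (log2 fold change −5.32 ± 0.21, adjusted *P* = 5.1e-11). *Kcna2* was at 5.35, 4.03 and 4.94 CPM in CD8.1 and 38.1, 33.6 and 37.9 in CD8.2 samples (log2 fold change −2.94 ± 0.15, adjusted *P* = 1.3e-09), both clear of overlap. Among S100, annexin and galectin genes, 12 of 22 were higher in CD8.1, while 1 was higher in CD8.2 T cells (2 without CD8.1 sample 2 or 3), with a median of 0.295. *S100a6* was at 48.6, 49.4 and 34.8 CPM in CD8.1 and 5.79, 6.11 and 4.52 in CD8.2 samples (log2 fold change 3.03 ± 0.20, adjusted *P* = 2e-08). *Lgals1*, the gene of galectin-1, was at 154, 248 and 174 CPM in CD8.1 and 61.8, 58.1 and 54.1 in CD8.2 samples (log2 fold change 1.73 ± 0.19, adjusted *P* = 5.9e-06). *Anxa2* was at 36.2, 48.7 and 27.6 CPM in CD8.1 and 12.6, 12.6 and 12.9 in CD8.2 samples (log2 fold change 1.56 ± 0.29, adjusted *P* = 0.00078). *Anxa6*, the exception, was at 464, 558 and 527 CPM in CD8.1 and 901, 806 and 844 in CD8.2 samples (log2 fold change −0.72 ± 0.07, adjusted *P* = 3.4e-06).

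Transcripts of the mitochondrial genome were higher in CD8.1 T cells, with 9 of 13 protein genes called, 0 in the other direction and a median of 0.916. *mt-Cytb*, encoding cytochrome b, was at 8723, 12430 and 12190 CPM in CD8.1 and 2914, 5321 and 5274 in CD8.2 samples (log2 fold change 1.30 ± 0.20, adjusted *P* = 0.00015). *mt-Nd1*, encoding a complex I subunit, was at 4913, 6287 and 5334 CPM in CD8.1 and 1956, 3279 and 2971 in CD8.2 samples (log2 fold change 1.01 ± 0.16, adjusted *P* = 0.00026). *mt-Co1*, encoding a subunit of cytochrome oxidase, was at 22310, 24180 and 22650 CPM in CD8.1 and 8576, 15840 and 15450 in CD8.2 samples (log2 fold change 0.79 ± 0.18, adjusted *P* = 0.0032). CD8.2 sample 1 was the lowest throughout, but the groups did not overlap in any of the 3. All mitochondrial genes together held 4.93% to 5.54% of counts in CD8.1 and 1.84% to 3.08% in CD8.2 samples. Nuclear genes of the respiratory chain gave 4 of 80 higher in CD8.1, while 5 of 80 were higher in CD8.2, below the shares among all tested genes, and a median of 0.0201. Without CD8.1 sample 1 these counts were 12 and 18. Without any other 1 sample the former was 1 to 2, and the latter was 3 without CD8.1 sample 2. *Atp5b*, the catalytic subunit of ATP synthase, was at 937, 929 and 895 CPM in CD8.1 and 1055, 1076 and 1069 in CD8.2 samples (log2 fold change −0.21 ± 0.06, adjusted *P* = 0.015).

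Cytosolic ribosomal protein genes were slightly lower in CD8.1 T cells, with 34 of 89 higher in CD8.2, 1 higher in CD8.1 and a median of −0.186. The first count was 20 to 22 without CD8.1 sample 2 or CD8.2 sample 2 or 3, and the second was 7 without CD8.1 sample 1 and 0 without any 1 of CD8.1 samples 2 and 3 and CD8.2 samples 1 and 3. *Rpl4* was at 3487, 3905 and 4063 CPM in CD8.1 and 4908, 4962 and 5025 in CD8.2 samples (log2 fold change −0.38 ± 0.07, adjusted *P* = 0.00087). *Rps18* was at 3882, 3625 and 3762 CPM in CD8.1 and 4933, 4917 and 4886 in CD8.2 samples (log2 fold change −0.39 ± 0.07, adjusted *P* = 0.00052). The groups did not overlap in either. *Rack1*, a scaffold of the small subunit outside that list, was at 4693, 4661 and 4673 CPM in CD8.1 and 5638, 5744 and 5613 in CD8.2 samples (log2 fold change −0.28 ± 0.06, adjusted *P* = 0.0027). *Rps26* was the exception, at 1574, 2082 and 2136 CPM in CD8.1 and 1467, 1536 and 1524 in CD8.2 samples (log2 fold change 0.36 ± 0.11, adjusted *P* = 0.019), but did not pass without CD8.1 sample 2 or 3 or CD8.2 sample 1 or 3. These genes carry a large part of all counts (229000 to 249000 CPM in CD8.1 and 255000 to 275000 CPM in CD8.2 samples). The share of mitochondrial counts, *Gm42418* and *Lars2* differed between the same samples, and their part in these values was not tested.

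**Figure D3:**
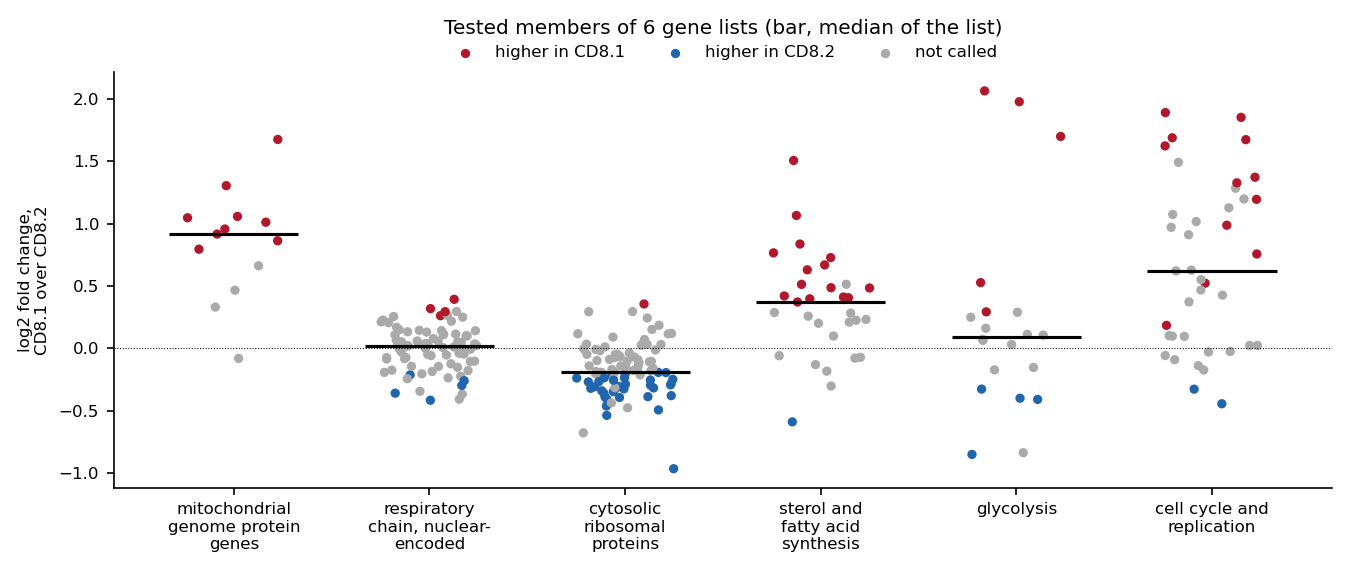
Log2 fold change (CD8.1 over CD8.2) of each tested member of 6 lists, red where higher in CD8.1, blue where higher in CD8.2 and grey where not called, with a bar at the median of the list. Mitochondrial genome genes lie at a median of 0.916 and ribosomal protein genes at −0.186, while nuclear respiratory chain genes lie around 0.

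Sterol and fatty acid synthesis genes were higher in CD8.1 T cells in 15 of 31 cases and lower in 1 (2 without CD8.2 sample 2), with a median of 0.371. The former count was 8 to 9 without CD8.1 sample 2 or CD8.2 sample 1 or 3. *Sqle*, the squalene epoxidase, was at 25.1, 19.1 and 18.9 CPM in CD8.1 and 8.3, 11.9 and 10.1 in CD8.2 samples (log2 fold change 1.06 ± 0.15, adjusted *P* = 6.8e-05). *Fdft1*, the squalene synthase before it, was at 28.5, 28.9 and 25.3 CPM in CD8.1 and 17.7, 18.7 and 17.2 in CD8.2 samples (log2 fold change 0.63 ± 0.09, adjusted *P* = 7.8e-05). Both genes kept the groups apart. *Acaca*, which makes malonyl-CoA for fatty acids, was lower (−0.59 ± 0.10). Glycolysis genes divided (5 of 20 higher in CD8.1, 10 without CD8.1 sample 1, and 4 of 20 higher in CD8.2). *Ldhb* was at 38.4, 45.2 and 45.4 CPM in CD8.1 and 13.4, 13.1 and 13.3 in CD8.2 samples (log2 fold change 1.70 ± 0.14, adjusted *P* = 3.5e-07), and the lactate transporter genes *Slc16a3* and *Slc16a1* changed in opposite directions (2.06 ± 0.32 and −0.85 ± 0.13).

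Cell cycle and replication genes had a median of 0.621, with 12 of 39 higher in CD8.1, while 2 of 39 were higher in CD8.2 T cells. These counts shifted when 1 sample was left out. Without CD8.1 sample 2 or CD8.2 sample 3 the count toward CD8.1 was 3, and without CD8.2 sample 1 it was 5. The count toward CD8.2 was 0 to 1 without any 1 sample other than CD8.1 sample 2. Called genes of all kinds also fell, from 3771 to 2734 without CD8.1 sample 2. They numbered 2692 without CD8.2 sample 1 and 2632 without CD8.2 sample 3. *Ccnb2*, a mitotic cyclin, was at 12.7, 13.8 and 7.5 CPM in CD8.1 and 2.73, 4.22 and 2.42 in CD8.2 samples (log2 fold change 1.89 ± 0.40, adjusted *P* = 0.0024). *E2f2*, a factor of S phase entry, was at 36.8, 55 and 35 CPM in CD8.1 and 13.5, 13.7 and 14 in CD8.2 samples (log2 fold change 1.62 ± 0.27, adjusted *P* = 0.00036). *Cdk2* was at 34.2, 36.8 and 30.3 CPM in CD8.1 and 16.6, 17.2 and 17.3 in CD8.2 samples (log2 fold change 0.99 ± 0.13, adjusted *P* = 3.4e-05). None of these 3 overlapped between the groups.

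Interferon-stimulated genes were higher in CD8.2 T cells in 14 of 39 cases and in CD8.1 T cells in 7 (4 without CD8.2 sample 3), with a median of −0.164. *Gbp2*, an interferon-induced GTPase, was at 87.5, 98.4 and 88.9 CPM in CD8.1 and 173, 156 and 152 in CD8.2 samples (log2 fold change −0.81 ± 0.09, adjusted *P* = 1e-05). *Gbp7*, of the same family, was at 18.1, 19.8 and 19.9 CPM in CD8.1 and 42.2, 31.8 and 33.8 in CD8.2 samples (log2 fold change −0.90 ± 0.12, adjusted *P* = 4.1e-05). In the opposite direction, *Ifi27l2a* was at 208, 225 and 156 CPM in CD8.1 and 92.8, 103 and 84.8 in CD8.2 samples (log2 fold change 1.07 ± 0.19, adjusted *P* = 0.00051). *Slfn5* was at 95.4, 94.6 and 101 CPM in CD8.1 and 61.8, 58.2 and 53.2 in CD8.2 samples (log2 fold change 0.75 ± 0.07, adjusted *P* = 2.4e-06). None of the 4 had overlapping groups. MHC and antigen processing genes were higher in CD8.2 T cells in 10 of 24 cases, with a median of −0.167. *Nlrc5*, the transactivator of MHC-I genes, was at 55.9, 61.9 and 67.9 CPM in CD8.1 and 104, 97.3 and 98.6 in CD8.2 samples (log2 fold change −0.69 ± 0.08, adjusted *P* = 1.6e-05). *H2-Q6*, a nonclassical MHC-I gene with near-identical relatives, was at 128, 76.7 and 144 CPM in CD8.1 and 290.0, 254 and 261 in CD8.2 samples (log2 fold change −1.21 ± 0.29, adjusted *P* = 0.0063). The 4 members higher in CD8.1 T cells were *Cd74*, *H2-Aa*, *H2-Ab1* and *H2-Eb1*, the MHC-II genes of B cells and other antigen-presenting cells, named after their values were seen. *Cd74* was at 269, 299.9 and 194 CPM in CD8.1 and 170.2, 188 and 86.3 in CD8.2 samples (log2 fold change 0.78 ± 0.23, adjusted *P* = 0.018), and its call was lost without CD8.1 sample 2 or CD8.2 sample 3 (0.64 and 0.49). The B cell marker *Cd79a* moved with it (0.93 ± 0.24), and the count of 4 was 0 to 2 without CD8.1 sample 1 or 2 or CD8.2 sample 1 or 3.

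Smaller gene families had called members in both directions. Of 15 BCL2 family genes, which control apoptosis, 2 were higher in CD8.1 T cells and 4 were lower (2 without any 1 sample other than CD8.1 sample 1). For the Gimap GTPase genes these counts were 3 and 2 of 9, and for the AP-1 factors 2 and 1 of 7. SMAD genes gave 2 and 1 of 6 (1 for the former without any 1 sample other than CD8.1 sample 2, 0 for the latter without CD8.1 sample 2 or CD8.2 sample 1 or 3). NF-κB subunits and inhibitors gave 2 and 1 of 11 (0 for the latter without CD8.1 sample 2 or CD8.2 sample 1 or 2).

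**Figure D4:**
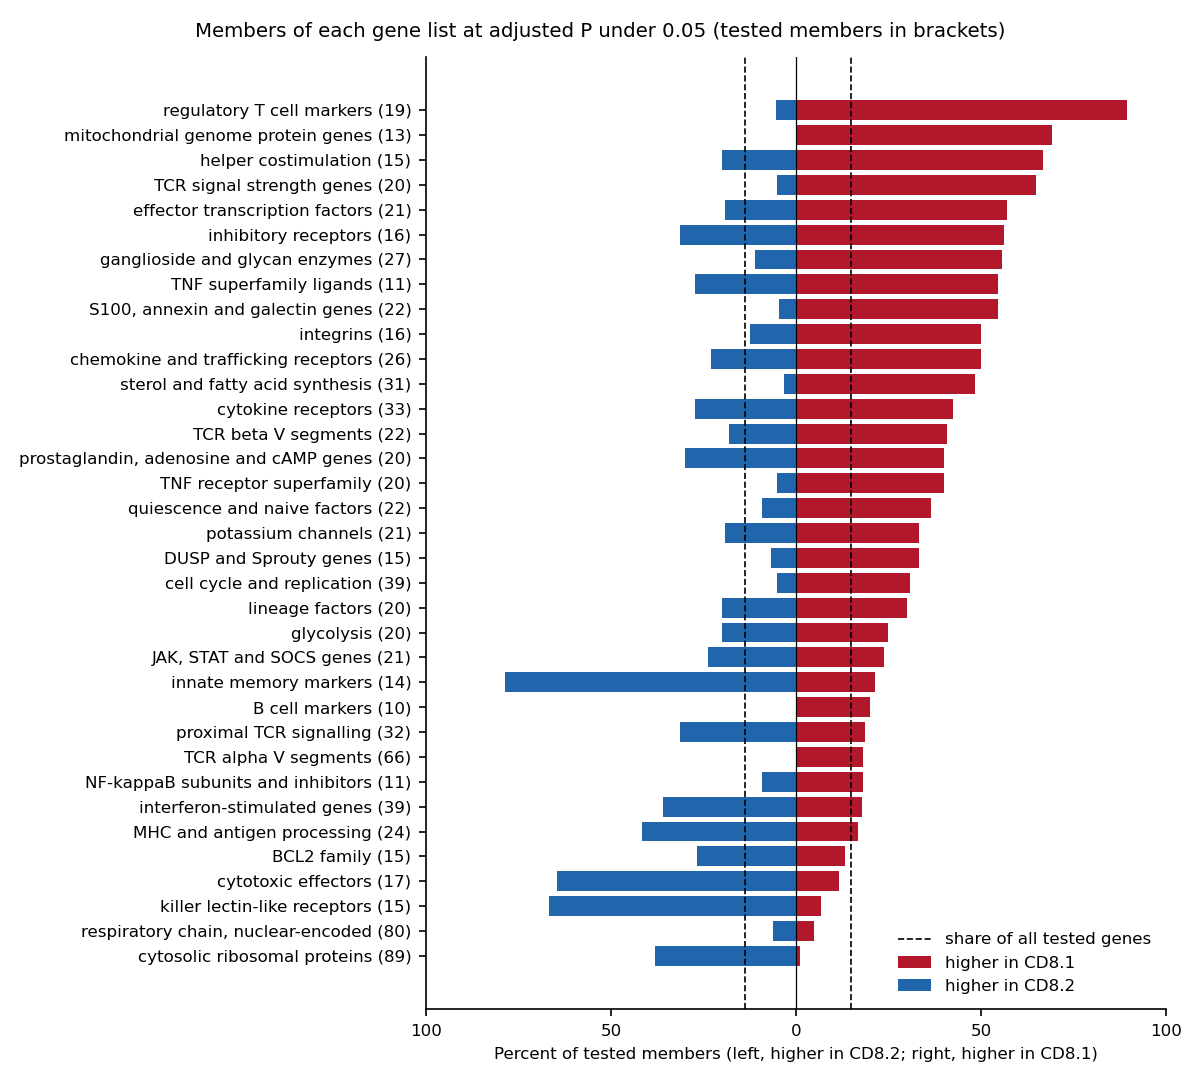
Percent of tested members of each gene list that were higher in CD8.1 (right, red) or CD8.2 T cells (left, blue) at an adjusted *P* under 0.05, for lists with 10 or more tested members, whose number is in brackets. Dashed lines mark the shares among all tested genes, 14.9% and 13.8%. Treg markers reach furthest to the right and innate memory markers furthest to the left.

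Among all genes with a mean of at least 10 CPM in the higher group and no overlap, the largest folds toward CD8.1 T cells after those above belonged to *Prg4*, the gene of lubricin, at 13.8, 16.2 and 19 CPM in CD8.1 and 0.426, 0.333 and 0.379 in CD8.2 samples (log2 fold change 5.40 ± 0.24, adjusted *P* = 2.3e-10). *Gpr83*, a receptor abundant in Treg cells, was at 45.2, 57.6 and 43.6 CPM in CD8.1 and 1.36, 1.95 and 1.63 in CD8.2 samples (log2 fold change 4.90 ± 0.18, adjusted *P* = 3.5e-11). *Ecm1*, a secreted matrix protein of Th2 cells, was at 52.4, 81.3 and 61.2 CPM in CD8.1 and 2.17, 2.78 and 1.98 in CD8.2 samples (log2 fold change 4.84 ± 0.20, adjusted *P* = 9e-11). *Cd4*, whose altered loci encode CD8 chains, still gave reads, at 51.5, 50.5 and 47.1 CPM in CD8.1 and 1.79, 1.11 and 1.52 in CD8.2 samples (log2 fold change 5.05 ± 0.14, adjusted *P* = 1.1e-12). *Myo10*, an unconventional myosin, and *Chn2*, a Rac regulator, followed (4.75 ± 0.32 and 4.65 ± 0.20). Toward CD8.2 T cells the largest was *Slc6a19*, a transporter of neutral amino acids, at 0.859, 0.619 and 0.475 CPM in CD8.1 and 72.1, 67.8 and 75 in CD8.2 samples (log2 fold change −6.77 ± 0.31, adjusted *P* = 3.2e-10). Next came *Bend4* at 0.191, 0.442 and 0.712 CPM in CD8.1 and 32.1, 36.3 and 35.5 in CD8.2 samples (log2 fold change −6.25 ± 0.44, adjusted *P* = 3.8e-08). *Adgrg5*, an adhesion G protein-coupled receptor, was at 1.15, 1.73 and 0.997 CPM in CD8.1 and 74.4, 80.1 and 75.6 in CD8.2 samples (log2 fold change −5.88 ± 0.14, adjusted *P* = 2.9e-13). Every sample of the higher group was over 10 times any sample of the lower group in these genes, *Cd4* included. *Bace1*, the β-secretase, *Lcn4*, a lipocalin, *Sytl3*, a synaptotagmin-like protein, *Haao*, an enzyme of tryptophan breakdown, *Chst11*, a chondroitin sulfotransferase, *Samd3* and *Plac8* completed that group, with log2 fold changes of −4.52 ± 0.25 (−5.25 without CD8.1 sample 1), −4.31 ± 0.19, −4.28 ± 0.23, −4.09 ± 0.19, −3.96 ± 0.21, −4.17 ± 0.27 and −3.81 ± 0.28.

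By difference in CPM the leading nuclear genes toward CD8.1 T cells included *Igfbp4*, an IGF-binding protein, at 946, 1057 and 1148 CPM in CD8.1 and 281, 286 and 306 in CD8.2 samples (log2 fold change 1.85 ± 0.09, adjusted *P* = 6.3e-10). *Shisa5* was at 2983, 3477 and 3590 CPM in CD8.1 and 2556, 2682 and 2639 in CD8.2 samples (log2 fold change 0.35 ± 0.07, adjusted *P* = 0.0022). *Pfn1*, the actin-binding profilin, was at 1633, 2245 and 2210 CPM in CD8.1 and 1407, 1518 and 1548 in CD8.2 samples (log2 fold change 0.44 ± 0.10, adjusted *P* = 0.0036). Toward CD8.2 T cells *Lars2* led, at 370.3, 121 and 214 CPM in CD8.1 and 897, 1667 and 6735 in CD8.2 samples (log2 fold change −3.72 ± 0.64, adjusted *P* = 0.00045), with CD8.2 sample 3 far above the others (log2 fold change −2.45 without it). *Cd8b1* was at 157, 216 and 206 CPM in CD8.1 and 1998, 1998 and 2009 in CD8.2 samples (log2 fold change −3.37 ± 0.11, adjusted *P* = 7.7e-12).

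V segments of the TCR genes were counted in the same way, against shares of 14.9% (toward CD8.1) and 13.8% (toward CD8.2) among all tested genes. Of 66 tested *Trav* segments, 12 were higher in CD8.1 T cells (6 without CD8.2 sample 1) and 0 in CD8.2 T cells (1 without any 1 CD8.1 sample), a share near or below that of all genes, and of 22 *Trbv* segments 9 (5 without CD8.1 sample 2) and 4. *Trbv31* was at 59.5, 67.9 and 65.3 CPM in CD8.1 and 26, 25.9 and 23.6 in CD8.2 samples (log2 fold change 1.35 ± 0.09, adjusted *P* = 1.8e-08). *Trbv29* was at 34.9, 29.3 and 33.2 CPM in CD8.1 and 52, 54.8 and 53 in CD8.2 samples (log2 fold change −0.71 ± 0.10, adjusted *P* = 6.5e-05), each with the groups apart. A segment's count mixes how many cells carry it with how much they transcribe.

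The corresponding pair in B6 mice, CD4+ over CD8+ T cells, gave a value for each change outside CD8Dual mice, on other samples of the same fit. Of the DEGs higher in CD8.1 T cells, 173 of 294 were B6 DEGs in that direction, and of those higher in CD8.2 T cells 108 of 141 (3.29% of all tested genes were B6 DEGs in either direction), while 27 and 20 changed less than 2-fold in B6 mice. An interaction of lineage and strain, the difference between the CD8Dual and the B6 log2 fold change, was called for 66 of the 435 DEGs, or 105 DEGs without CD8.1 sample 1 (1.87% of all tested genes were called). Of the 39 among these that were higher in CD8.1 T cells, 34 changed further toward CD8.1 in CD8Dual than in B6 mice. Genes whose direction was reversed in B6 mice are included in that count. Of the 27 that were higher in CD8.2 T cells, 20 had the smaller change in CD8Dual mice. *Tigit*, *Ccr2* and *S100a6* were examples of the 34. *Tigit*, at 3.09, 4.44 and 6.72 CPM in CD4+ and 3.89, 3.49 and 5.15 in CD8+ samples in B6 mice, had an interaction of 3.40, adjusted *P* = 0.00027. *Ccr2*, a receptor of monocyte chemokines, was at 23.8, 13.8 and 10.6 CPM in CD8.1 and 2.68, 3.11 and 2.51 in CD8.2 samples in CD8Dual mice and 1.91, 4.14 and 3.19 CPM in CD4+ and 11.1, 10.6 and 17.4 in CD8+ samples in B6 mice, so that its direction was reversed (interaction 4.62, adjusted *P* = 1.9e-05). *S100a6* was at 5.91, 8.75 and 11.1 CPM in CD4+ and 9.13, 10.6 and 9.09 in CD8+ samples (interaction 3.19, adjusted *P* = 8.6e-06). *Gzmb* was at 0.455, 1.25 and 1.02 CPM in CD4+ and 0.983, 1.67 and 2.26 in CD8+ samples (interaction 3.45, adjusted *P* = 0.00098). For *Nkg7*, *Ccl5* and *Itgae* the change in CD8Dual mice was the smaller. *Nkg7* was at 2.68, 2.03 and 4.68 CPM in CD4+ and 494, 532 and 549.7 in CD8+ samples (interaction 1.81, adjusted *P* = 0.0008). *Ccl5* was at 1.41, 2.11 and 2.76 CPM in CD4+ and 126, 141 and 97.8 in CD8+ samples (interaction 3.47, adjusted *P* = 1.4e-06), and *Itgae*, not a DEG in CD8Dual mice, at 2.91, 5.09 and 5.87 CPM in CD4+ and 234, 239.8 and 264 in CD8+ samples (interaction 3.93, adjusted *P* = 1.9e-08). *Cdh1*, the gene of E-cadherin, and *Pomgnt2*, a glycosyltransferase, had larger changes in CD8Dual mice toward CD8.2 T cells, but their interactions did not pass (−2.42, adjusted *P* = 0.053 and −2.12, adjusted *P* = 0.12). Outside the DEGs, *Il2rb* was at 83.5, 91 and 111 CPM in CD4+ and 472, 454 and 493 in CD8+ samples in B6 mice (interaction 1.93, adjusted *P* = 4.8e-07). Treg markers as a list had a median of 2.34 in B6 mice. Their defining gene *Foxp3* was at 32.6, 37.8 and 44.6 CPM in B6 CD4+ samples, below the 102 to 168 CPM of CD8.1 samples. Its interaction did not pass (−0.092, adjusted *P* = 0.95). The part of this difference in Treg transcript level in the interactions given here and below was not tested. Mitochondrial genome genes had a median of 0.325 in B6 mice. For *mt-Nd1* and *mt-Cytb* the interaction did not pass (adjusted *P* = 0.094 and adjusted *P* = 0.19). For another complex I gene of that genome it did pass (interaction 0.997, adjusted *P* = 0.023).

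**Figure D5:**
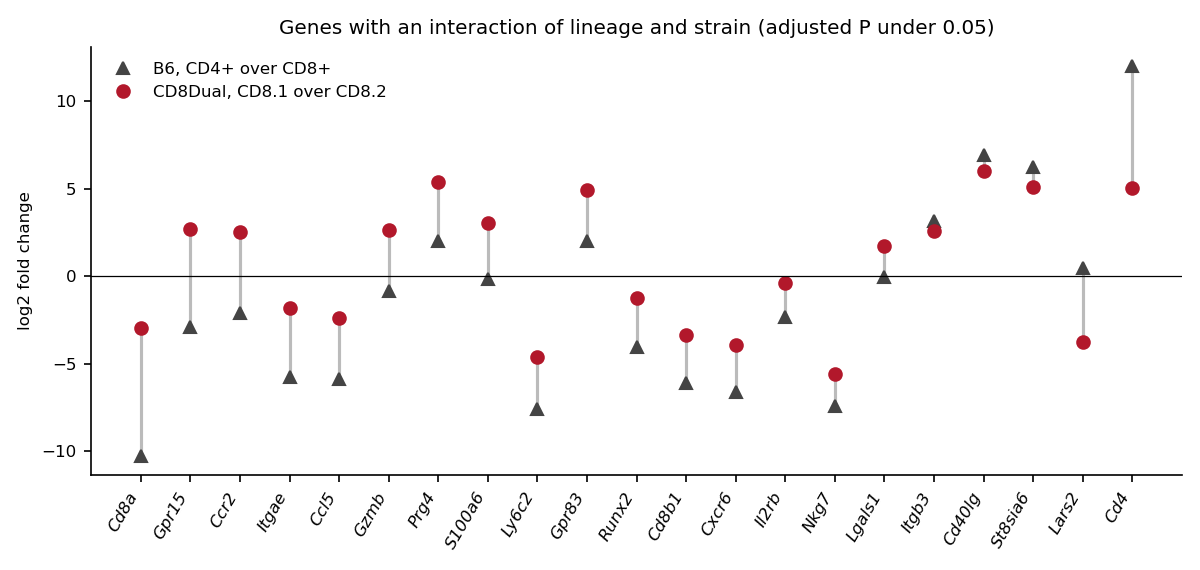
Log2 fold change of CD8.1 over CD8.2 T cells (circles) and of B6 CD4+ over CD8+ T cells (triangles) for 21 genes with an interaction at an adjusted *P* under 0.05, in the order of the interaction. *Cd8a*, *Gpr15* and *Ccr2* stand at the end where the CD8Dual change lies higher, and *Cd4*, *Lars2* and *St8sia6* at the other end. *Lars2* varied widely within groups, at 4688, 1460 and 2446 CPM in B6 CD8+ and 897, 1667 and 6735 in CD8.2 samples. The *Cd4* loci of CD8Dual mice encode CD8 chains in place of CD4, which bears on *Cd4*, *Cd8a* and *Cd8b1*.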

How the data were processed

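RNA of sorted LN T cells was measured in 12 samples, 3 per group. The authors aligned reads with STAR to mm10 and estimated expression with RSEM (versions not given in the sources used here), and deposited whole-number read counts per gene for 49585 genes. No strand setting was stated, so reads of overlapping or near-identical genes cannot be told apart. Of the 189 tested genes named, 84 overlap another annotated gene (*Foxp3* with *Flicr*, *Itgae* with *Haspin*, for example). No value column lacked a sample (0).

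Counts were filtered with filterByExpr over the 4 groups (13118 genes kept), scaled by TMM and tested with edgeR 4.0.16 (quasi-likelihood, 1 coefficient per group over 12 samples) in R 4.3.3. The definition of a DEG is the study's. Positions are from GENCODE M21 on GRCm38, which is mm10 (13094 of 13118 tested genes matched). Figures used Python 3.11.15, pandas 2.3.3 and matplotlib 3.10.9. The tests were checked on simulated data. Totals of 18667474 to 37110502 counts set the floor of 3 counts, and intervals cover counting error only. Ratios of scarce genes use counts summed over 3 samples. DESeq2 1.42.0, limma 3.58.1 (voom), other filters, the replicate number as a block, the 6 CD8Dual samples alone and leaving out each sample were tried as alternatives.

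The members and gene lists were chosen with earlier results of these data known. Named were (a) the markers and co-receptor genes, (b) list members with small adjusted *P* or known as defining, up to 6 a list, (c) the 15 largest log2 fold changes and (d) the 10 largest differences of mean CPM in each direction, both at a mean of at least 10 CPM with no overlap, and (e) the 8 DEGs with the smallest interaction *P* in each direction. Predicted genes and near-identical family members were not named under (c) to (e), nor were some mitochondrial genome and ribosomal protein genes under (d). Where a list has more than 6 named members, and for genes in the comparison with B6 mice outside (e), names were added after their values were seen. Some members of the lists are counted but not reported here by name.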

Additional observations from a re-analysis of the deposited data

Results flagged for a closer look

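For 66 DEGs the change within CD8Dual mice differed from that between B6 CD4+ and CD8+ T cells by a test of the difference itself (an interaction term in edgeR's quasi-likelihood model, adjusted *P* under 0.05), and the same test called the named genes that follow. Each value is the log2 fold change of CD8.1 over CD8.2 minus that of B6 CD4+ over CD8+. The difference was positive for *Adgrg5* 2.90, *Anxa2* 2.20, *Bhlhe40* 1.81, *Ccl5* 3.47, *Ccr2* 4.62, *Cd160* 1.90, *Cd44* 0.93, *Cd8a* 7.31, *Cd8b1* 2.70, *Chn2* 2.68, *Cish* 0.98, *Cxcr3* 1.51 and *Cxcr5* 0.57. It was also positive for *Cxcr6* 2.67, *Dusp4* 2.21, *Fut7* 2.37, *Gpr15* 5.58, *Gpr83* 2.87, *Gzmb* 3.45, *Gzmm* 2.45, *Ikzf2* 2.65, *Il18rap* 2.90, *Il2rb* 1.93, *Itgae* 3.93, *Klrc1* 3.60 and *Lgals1* 1.76. A positive value was likewise found for *Ly6c2* 2.95, *Nkg7* 1.81, *Nrp1* 1.51, *Pim1* 0.69, *Plac8* 2.27, *Prg4* 3.39, *Runx2* 2.77, *S100a6* 3.19, *Tigit* 3.40, *Trbv29* 0.60 and *Xcl1* 2.08. It was negative for *Cd4* −6.93, *Cd40lg* −0.94, *Itgb3* −0.58, *Lars2* −4.18, *Ly6a* −0.69, *St8sia6* −1.19 and *Trbv31* −0.80. The values of *Cd4*, *Cd8a* and *Cd8b1* come from a strain whose altered *Cd4* loci encode CD8 chains in place of CD4.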

How the results depend on the processing

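DEGs numbered 435, with 422 to 437 under DESeq2 size factors, DESeq2's Wald test or limma-voom, 366 with the 6 CD8Dual samples alone, 455 to 520 with 1 sample left out and 476 without both CD8.1 sample 1 and CD8.2 sample 3, an alternative chosen after seeing the data. They numbered 858 with no filter on low counts (23418 genes tested), 241 at a mean of at least 1 CPM and 1360 at a fold over 2. Genes at an adjusted *P* under 0.05 numbered 3771, with 3118 to 4126 under the alternatives that kept all CD8Dual samples, and 2632 to 5013 with 1 sample left out. DEGs with an interaction numbered 66, with 128 under no filter, and 54 to 105 with 1 sample left out. The share of DEGs higher in CD8.1 T cells was 61% to 71.9% (67.6% as reported). DESeq2 gave no adjusted *P* for 4 genes. Of 88 list counts, 54 stayed within 1.5 times under every alternative. Same-numbered samples deviated with correlations of −0.00388, 0.0905 and 0.119, so the numbers were not taken as pairs, and whether same-numbered samples share mice or a batch is not known. With the replicate number as a block there were 432 DEGs (426 of them shared with the 435), 4101 genes at an adjusted *P* under 0.05 and 82 DEGs with an interaction, and 6 of the 88 list counts moved by over 1.5 times. Of 189 named genes, 179 kept direction and call under every alternative, 10 lost the call under at least 1 and 0 reversed. The cause of these shifts was not tested. Genes near the floor, such as Ly49 genes, are limited by depth.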

Other observations

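DEGs also lay next to each other on the chromosomes (GRCm38), with clusters of at least 3 DEGs whose gaps were at most 100000 bases. Only some of these clusters are described. Among the others, DEGs went both ways on chromosome 11 (2 higher in CD8.1, 1 in CD8.2) and around *Adgrg5* on chromosome 8 (1 and 2). On chromosome 6, 7 Ly49 genes between 130013033 and 130337574 were all higher in CD8.2 T cells, and reads of these near-identical genes may be split in counting. Also on chromosome 6, *Smyd1*, *Cd8b1*, *Cd8a* and 2 predicted genes between 71213940 and 71379173 were higher in CD8.2 T cells, while *Gpr162*, *Cd4* and *Ptms* between 124858444 and 124920103 were higher in CD8.1 T cells. On chromosome 9, *Itga9*, *Ctdspl*, *Vill* and *Plcd1* between 118606690 and 119093502 were all higher in CD8.1 T cells. *Itga9*, an integrin chain, was at 1.43, 2.21 and 1.76 CPM in CD8.1 and 0.0426, 0.167 and 0.175 in CD8.2 samples (log2 fold change 3.73 ± 0.46, adjusted *P* = 2.1e-05), and *Plcd1*, a phospholipase C, at 0.382, 1.06 and 0.665 CPM in CD8.1 and 0.128, 0 and 0.0875 in CD8.2 samples (log2 fold change 3.09 ± 0.71, adjusted *P* = 0.0043). On chromosome 14, *Il17rb*, *Chdh* and *Cacna1d* between 29996135 and 30491455 were higher in CD8.1 T cells, though *Cacna1d* did not pass without any 1 CD8.2 sample (adjusted *P* = 0.056 to 0.076). Whether such neighbours occur more often than among other genes was not tested, and the clusters were found after the values were seen.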
